A study of Mus musculus with 12 samples.

Results

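Growth hormone acts on the liver through a receptor, a kinase and the transcription factor STAT5, and 10 genes of this axis were followed in mice carrying a Fra-1 or Fra-2 transgene. They were picked by symbol from the deposited count table, which lists 55421 genes. The 10 are the receptor gene Ghr, the hormone gene Igf1, the feedback regulators Cish and Socs2, the repressor gene Bcl6, and the male-biased liver genes Hsd3b5, Slco1a1, Elovl3, Cyp2d9 and Mup20. Each symbol matched 1 row, and all 10 were among the 14076 genes that passed the filter on low counts. Messenger RNA of whole liver, described as mostly hepatocytes, came from adult male C57BL/6 mice of 2 strains, Fra1hep and Fra2hep, with 3 mutants and 3 littermate controls in each. The mutants of Fra1hep express Fra-1, encoded by Fosl1, and those of Fra2hep express Fra-2, encoded by Fosl2; both proteins are subunits of the transcription factor AP-1. Doxycycline was removed from mutants and controls alike at 3 weeks of age, which started the transgene in mutants. Titles give 2 months for all 12 mice, without saying whether this is age or time since doxycycline removal. A treatment label of the Fra2 mutants says 9 months, so their age match to the controls cannot be told from the labels. Neither the promoter driving the transgene nor the hour at which livers were taken was stated in the labels.

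Growth hormone binding to its receptor activates the kinase JAK2, which phosphorylates STAT5a and STAT5b. STAT5 then moves to the nucleus and binds sites of the form TTCNNNGAA. In male rodents the pituitary releases the hormone in separate pulses and in females nearly continuously, and this pattern sets which genes are male-biased or female-biased in the adult liver. A pulse is known to induce Cish and Socs2 in rodent liver and to repress Bcl6, whereas male-biased enzymes and carriers follow the pulse pattern over days. Liver is also the main source of circulating IGF1.

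Each library held between 16834041 and 20464807 counts. Levels are given as CPM, counts after scaling each library to 1000000. Effects are log2 fold changes ± SE from edgeR's quasi-likelihood test over all 14076 genes, and a gene was called where its Benjamini-Hochberg adjusted p was under 0.05. Fosl1 stood at 9.41, 10.2 and 12.8 CPM in the Fra1 mutants and between 0 and 0.607 CPM in the other 9 libraries. Fosl2 stood at 398, 421 and 421 CPM in the Fra2 mutants. It was between 8.65 and 16.0 CPM in 5 of the 6 controls and 48.1 CPM in Fra2 control 2. The hepatocyte markers Alb, Apoa1, Ttr, Hnf4a and Tat were detected in every library, and their summed level was 45782 to 98707 CPM in Fra1 mutants against 77331 to 113629 in their controls. In the Fra2 mutants it was 48641 to 63337 CPM against 96736 to 118663 in their controls. The sum is carried mostly by Alb, Apoa1 and Ttr, with effects of -0.41, -0.87 and -0.54 in the Fra1 strain and -1.05, -1.17 and -0.69 in the Fra2 strain. Effects were 0.43 in the Fra1 strain and 0.24 in the Fra2 strain for Hnf4a, and -0.05 and -0.07 for Tat. Within either strain none of the 5 markers was called. In the mean of both strains 1 of the 5 was called lower (1.9% of all genes), and 4 had an unadjusted p under 0.05 (19.4%). In whole tissue, fewer hepatocytes and less RNA per hepatocyte cannot be told apart. The part of hepatocyte marker levels in the results below was not tested.

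Promoter windows are shown for the genes closest to STAT5 and for the 2 windows that hold an AP-1 site, since the transgenes encode AP-1 subunits. Windows of 250 bases before to 50 bases after an annotated start were taken from RefSeq (GRCm38.p6). They were available for 7 of the 10 genes, 9 windows in all. Elovl3, Socs2 and Mup20 had no window and were not searched. Both strands were searched for the STAT5 site TTCNNNGAA and the AP-1 site TGANTCA. The STAT5 site was found in 3 of the 9 windows, all of Cish or Bcl6, and the AP-1 site in 2 of 9. Over all 32851 RefSeq windows of this length, 8.30% hold the STAT5 site and 7.81% the AP-1 site. Capitals mark the STAT5 sites in the windows of Cish (chr9:107296409-107296708, plus strand) and Bcl6 (chr16:23981234-23981533, minus strand).
Cish: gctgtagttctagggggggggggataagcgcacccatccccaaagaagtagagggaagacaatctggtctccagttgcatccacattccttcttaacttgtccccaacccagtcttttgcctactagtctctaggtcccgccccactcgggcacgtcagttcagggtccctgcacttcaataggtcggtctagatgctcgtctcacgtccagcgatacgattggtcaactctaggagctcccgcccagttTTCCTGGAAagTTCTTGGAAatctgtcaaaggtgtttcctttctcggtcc
Bcl6: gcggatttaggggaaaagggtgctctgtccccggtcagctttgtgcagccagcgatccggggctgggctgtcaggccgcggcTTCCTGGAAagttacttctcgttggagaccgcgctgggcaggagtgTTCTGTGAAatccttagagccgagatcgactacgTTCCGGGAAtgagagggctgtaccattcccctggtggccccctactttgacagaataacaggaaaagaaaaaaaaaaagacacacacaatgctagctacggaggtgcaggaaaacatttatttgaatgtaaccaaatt
The 2 sites of Cish begin at bases 1 and 12 after the start, and the 3 sites of Bcl6 at -168, -122 and -88. A second Bcl6 window (chr16:23988803-23989102, minus strand) holds 1 site, at -118. A second Ghr window (chr15:3583303-3583602, minus strand) holds neither motif. Capitals mark the AP-1 site at -37 in the window of Igf1 (chr10:87860861-87861160, plus strand) and at -34 in the first window of Ghr (chr15:3581793-3582092, minus strand).
Igf1: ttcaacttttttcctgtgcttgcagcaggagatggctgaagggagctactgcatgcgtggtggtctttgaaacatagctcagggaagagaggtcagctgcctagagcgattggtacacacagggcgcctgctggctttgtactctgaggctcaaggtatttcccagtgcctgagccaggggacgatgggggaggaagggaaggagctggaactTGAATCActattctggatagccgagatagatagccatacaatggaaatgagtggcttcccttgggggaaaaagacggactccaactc
Ghr: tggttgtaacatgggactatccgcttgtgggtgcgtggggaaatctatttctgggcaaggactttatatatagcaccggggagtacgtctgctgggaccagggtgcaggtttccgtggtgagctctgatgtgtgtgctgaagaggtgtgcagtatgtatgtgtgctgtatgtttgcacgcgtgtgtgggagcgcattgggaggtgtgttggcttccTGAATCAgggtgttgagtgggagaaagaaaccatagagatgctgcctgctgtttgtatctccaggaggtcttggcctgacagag
No binding was measured, so these matches describe letters and not occupied sites. The windows of Slco1a1 and Cyp2d9 held neither motif, nor did that of Hsd3b5, which lies outside the counted gene (chr3:98645485-98645784, minus strand). The Cyp2d9 window (chr15:82452127-82452426, plus strand) lies inside its gene and not at its annotated 5′ end. The windows printed above for Cish, Bcl6, Igf1 and Ghr also lie inside their genes and not at the annotated 5′ ends. The second windows of Bcl6 and Ghr span those ends.

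Across the 10 genes, the clearest separations from littermate controls were in the Fra1 strain. None of the 10 genes was called in Fra1 mutants by edgeR, where 3.84% of all genes were called. At an unadjusted p under 0.05 there were 3, Hsd3b5, Slco1a1 and Elovl3, against 16.3% of all genes. DESeq2 called 2 of the 10, Hsd3b5 (adjusted p = 0.0281) and Slco1a1 (0.00468), and limma-voom called Slco1a1 (0.0436). Over all genes in this comparison edgeR called 540, DESeq2 1021, and limma-voom between 371 and 1021. Fra1 mutants lay wholly below their controls in 4 genes, Hsd3b5, Slco1a1, Elovl3 and Ghr, a pattern seen in 9.98% of all genes. They lay wholly above in 0 of the 10, against 11.7% of all genes. The median log2 fold change of the 10 genes was -0.35, against 0.01 over all genes, with 7 below 0. In Fra2 mutants edgeR, DESeq2 and limma-voom each called 0 of the 10, where edgeR called 1.07% of all genes, and 1 gene, Slco1a1, had an unadjusted p under 0.05, against 11.5% of all genes. No member separated the Fra2 groups fully, downward (8.17% of all genes) or upward (9.31%). The median was -0.15, against -0.01 over all genes.

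**Figure D1:**
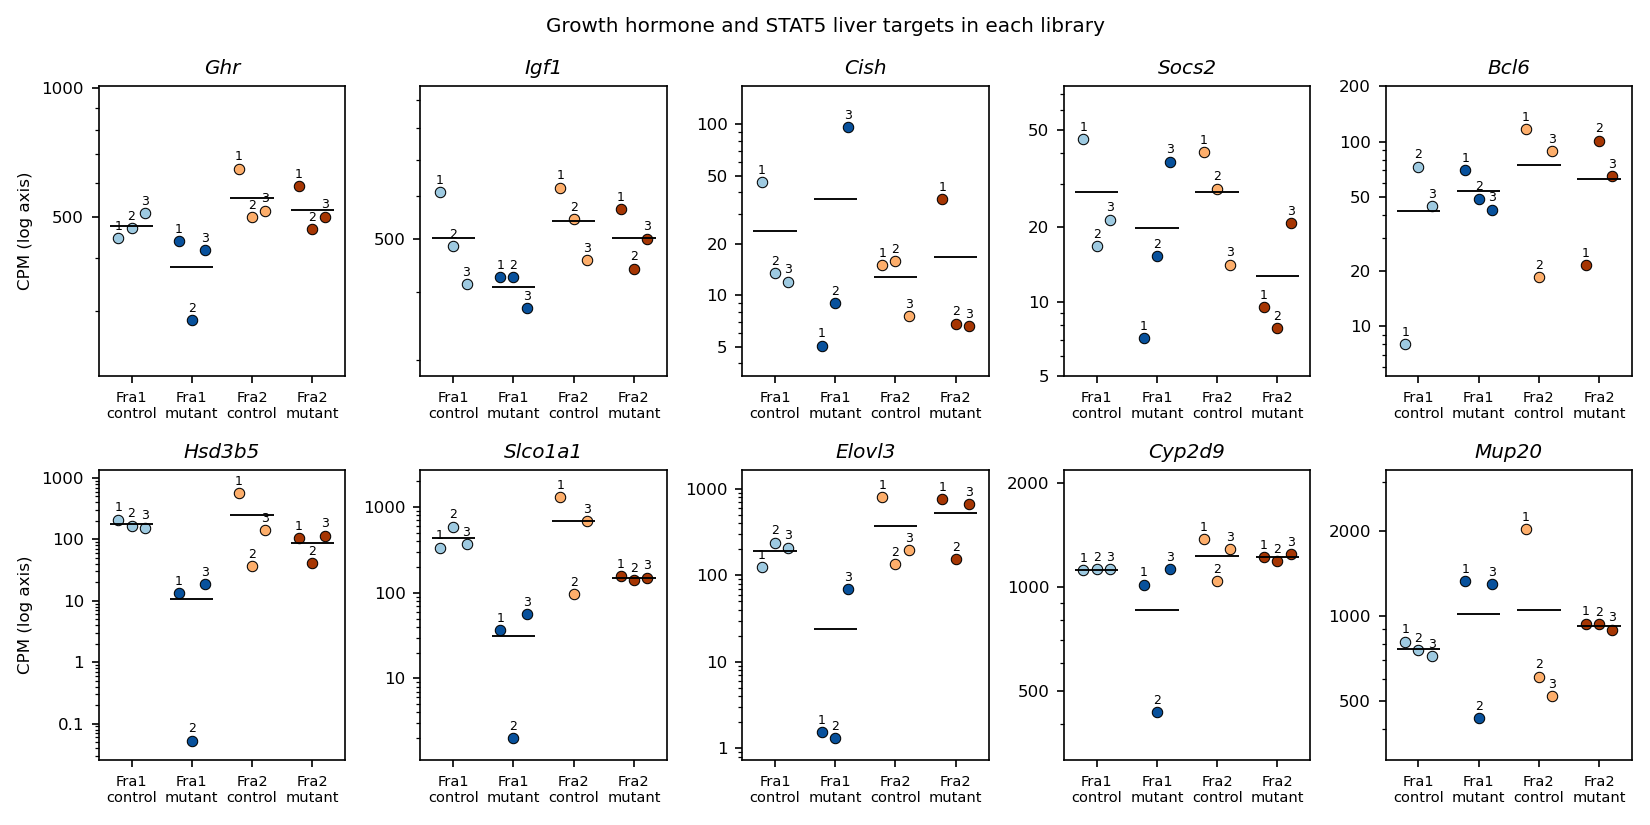
CPM (log axis) of each of the 10 genes in the 12 libraries. Points are single mice numbered by replicate, and horizontal lines are group means. Fra1 mutant 2 is the lowest of all libraries in 6 panels, and Fra2 control 1 is the highest in 8.

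Ghr (chromosome 15, 3317760 to 3583492, minus strand, GRCm38) encodes the growth hormone receptor. It was at 445, 469.8 and 509 CPM in Fra1 controls and 437, 286 and 418 CPM in Fra1 mutants. The groups did not overlap, mutant 1 lying just under the lowest control and mutant 2 far under. The effect of -0.32 ± 0.17 did not pass (adjusted p = 0.40) and was -0.15 without mutant 2. Ghr in the Fra2 strain was at 649, 499 and 516 CPM in controls and 589.9, 467 and 500.2 CPM in mutants, with overlapping ranges (-0.10 ± 0.17, adjusted p = 0.902).

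The 15 other genes of receptor signalling were all tested, and edgeR called 0 in either strain (3.84% of all genes in Fra1, 1.07% in Fra2). None had an unadjusted p under 0.05 (16.3% of all genes in Fra1, 11.5% in Fra2). In Fra1 mutants 8 were negative and 7 positive, with a median of -0.01, and in Fra2 mutants 8 and 7, with a median of -0.03. By the smallest p, the named members were Stat3, a transcription factor of cytokine signalling (-0.29 ± 0.15, adjusted p = 0.382 in Fra1 mutants), and Jak2, the receptor's kinase (0.29 ± 0.17, 0.426). In Fra2 mutants they were Stat3 (0.22 ± 0.15, adjusted p = 0.650) and the adaptor gene Sh2b1 (-0.12 ± 0.08, 0.650). Stat5b, the main STAT5 gene of liver, was at 57.1, 78.9 and 64.9 CPM in Fra1 controls and 52.5, 65.1 and 65.4 CPM in Fra1 mutants. In the Fra2 livers it was at 69.5, 72.9 and 77.6 CPM in controls and 60, 75.3 and 80.2 CPM in mutants. These levels overlapped within each strain. They are RNA levels and do not measure phosphorylated STAT5.

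Igf1 (chromosome 10, 87858265 to 87937042, plus strand), the growth factor gene that STAT5 drives in liver, was at 609.8, 485 and 413 CPM in Fra1 controls and 425, 425 and 373 CPM in Fra1 mutants. The ranges overlapped only through control 3. The effect was -0.30 ± 0.17 (adjusted p = 0.411) and became -0.15 without control 1. In the Fra2 strain the values were 621, 543 and 457 CPM in controls and 567, 441 and 501 CPM in mutants, again overlapping (-0.10 ± 0.17, adjusted p = 0.884).

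Of 11 other genes of the IGF axis, 10 were tested and edgeR called 0 in either strain (3.84% of all genes in Fra1, 1.07% in Fra2). In Fra1 mutants 2 had an unadjusted p under 0.05 (16.3% of all genes), with 6 negative effects and a median of -0.18. In Fra2 mutants 2 had as well (11.5%), with 9 negative effects and a median of -0.33. Mutants lay wholly below controls in 2 of the 10 in each strain (9.98% of all genes in Fra1, 8.17% in Fra2). Igfals encodes the acid-labile subunit that holds IGF1 in a long-lived serum complex and is itself induced by growth hormone. It was at 156, 123 and 131 CPM in Fra1 controls and 56.5, 36.8 and 68.9 CPM in Fra1 mutants. All 3 mutants lay under all 3 controls, but the effect did not pass (-1.34 ± 0.36, adjusted p = 0.0713). Its Fra2 effect was -0.31 ± 0.35, with controls of 83.2 to 154 CPM and mutants of 47.8 to 137 CPM. Igfbp2, an IGF-binding protein gene, was at 554, 340.2 and 316 CPM in Fra1 controls and 22.2, 124 and 48.2 CPM in Fra1 mutants, also without overlap (-2.63 ± 0.83, adjusted p = 0.124). In Fra2 mutants the named members were Igfbp6 (-1.28 ± 0.42, adjusted p = 0.236) and Igfbp3 (-0.36 ± 0.16, 0.431), binding protein genes at which mutants lay below controls. Igf2, the fetal growth factor gene, had 11 counts over all 12 libraries and was not tested.

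**Figure D2:**
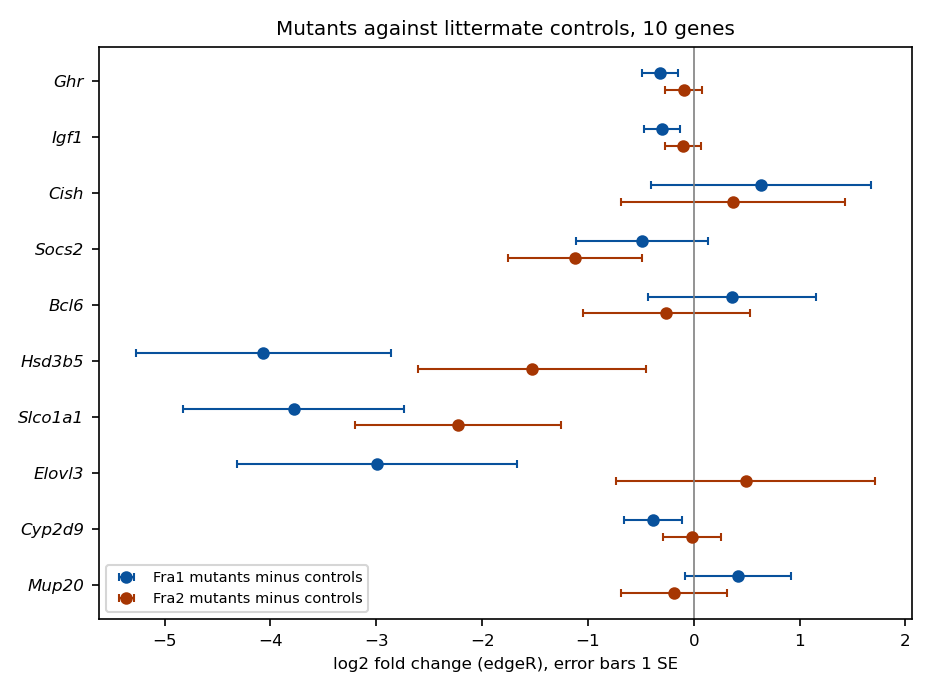
Log2 fold change of mutants against littermate controls for the 10 genes, Fra1 strain in blue and Fra2 strain in brown; bars are 1 SE from edgeR. Hsd3b5 and Slco1a1 lie at -4.07 and -3.78 in the Fra1 strain, while Ghr and Igf1 lie within 0.32 of 0 in both strains with short bars.

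Cish, Socs2 and Bcl6 are known to respond directly to growth hormone, and their mutants and controls overlapped in both strains. Cish (chromosome 9, 107296026 to 107302784, plus strand) encodes a SOCS-family protein that restrains STAT5 signalling. Its levels were 45.6, 13.5 and 12 CPM in Fra1 controls and 5.09, 9.01 and 95.9 CPM in Fra1 mutants. The highest library of all 12, mutant 3, and the lowest, mutant 1, were both Fra1 mutants. The effect was 0.64 ± 1.04 (adjusted p = 0.822) and turned to -1.77 without mutant 3. Cish in the Fra2 strain was at 15.0, 15.9 and 7.56 CPM in controls and 36.5, 6.82 and 6.59 CPM in mutants (0.37 ± 1.06, adjusted p = 0.942).

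Socs2 (chromosome 10, 95385362 to 95417180, minus strand), whose product limits growth hormone signalling in mice, was at 45.6, 16.8 and 21.5 CPM in Fra1 controls and 7.11, 15.3 and 37.0 CPM in Fra1 mutants. These overlapped (-0.49 ± 0.62, adjusted p = 0.758), and without control 1 the effect was 0.03. In the Fra2 strain the values were 40.4, 28.8 and 14.1 CPM in controls and 9.52, 7.80 and 20.8 CPM in mutants. The effect of -1.12 ± 0.63 did not pass (adjusted p = 0.562), mutant 3 lying among the controls.

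Bcl6 (chromosome 16, 23965052 to 23988852, minus strand) encodes a repressor that competes with STAT5 at shared sites and is more highly expressed in male than in female mouse liver. It was at 7.97, 73.4 and 44.9 CPM in Fra1 controls and 70.3, 49.2 and 42.9 CPM in Fra1 mutants (0.36 ± 0.79, adjusted p = 0.876). Without Fra1 control 1, which held the lowest value of all 12 libraries, the effect was -0.14. The Fra2 controls were at 117, 18.5 and 89.3 CPM and the mutants at 21.4, 101 and 65.0 CPM (-0.26 ± 0.79, adjusted p = 0.945). Over the 6 controls alone the highest Bcl6 level was 14.7 times the lowest, against 6.04 for Cish and 3.23 for Socs2.

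Low Bcl6 and high Cish fell in the same 4 libraries, while the other 8 showed no inverse order of these genes. The 4 libraries lowest in Bcl6 were Fra1 control 1, Fra2 control 2, Fra2 mutant 1 and Fra1 mutant 3. The same 4 libraries were the 4 highest in Cish, at 15.9 to 95.9 CPM, the other 8 being at 5.09 to 15.0 CPM. They came from all 4 groups, 1 mouse from each. The edges were narrow: Cish was at 15.9 CPM in Fra2 control 2 and 15.0 CPM in Fra2 control 1, the library highest in Bcl6. Likewise Bcl6 was at 42.9 CPM in Fra1 mutant 3 and 44.9 CPM in Fra1 control 3. Socs2 followed this order in part: Fra1 control 1 was its highest library and Fra1 mutant 3 was at 37.0 CPM, but Fra2 control 1, the highest in Bcl6, was at 40.4 CPM and Fra2 mutant 1, low in Bcl6 and high in Cish, was at 9.52 CPM. This ordering was noticed in the data and is given as a description.

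**Figure D3:**
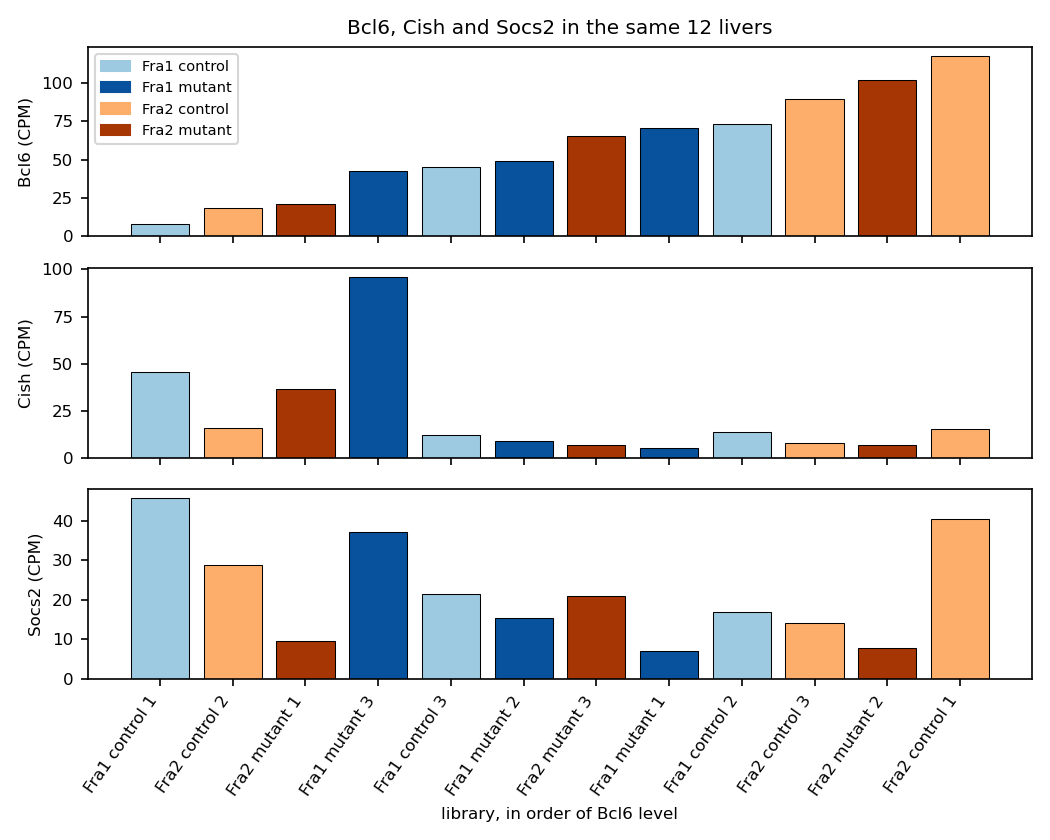
CPM of Bcl6, Cish and Socs2 in the 12 livers, ordered from the lowest to the highest Bcl6 level; bar colours give the group. The 4 livers on the left, 1 from each group, have the 4 highest Cish bars, led by Fra1 mutant 3 at 95.9 CPM.

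Among the male-biased genes, Hsd3b5 and Slco1a1 had the widest gaps in the Fra1 strain. Hsd3b5 (chromosome 3, 98618634 to 98630252, minus strand) encodes a steroid dehydrogenase of the male mouse liver. It was at 211, 168 and 155 CPM in Fra1 controls, and at 13.2, 0.0527 and 18.5 CPM in Fra1 mutants. All 3 mutants lay under the other 9 libraries, and mutant 2 had a single count where the lowest Fra1 control had 2876. The fitted level was 16.8-fold lower (-4.07 ± 1.21), with an adjusted p of 0.103. In fits leaving out each library in turn the effect ran from -4.76 to -3.49, the smallest being that without Fra1 mutant 2, and no such fit called it, the lowest adjusted p being 0.0707.

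In the Fra2 strain Hsd3b5 was at 566, 36.7 and 143 CPM in controls and 104, 40.5 and 115 CPM in mutants. The mutants fell inside the range of the controls, which spanned 15.4-fold. The effect was -1.53 ± 1.08 (adjusted p = 0.666). It was -0.06 without Fra2 control 1 and -2.04 without Fra2 control 2.

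Slco1a1 (chromosome 6, 141907282 to 141946962, minus strand) encodes a hepatocyte carrier that takes up organic anions. It stood at 336, 594 and 369.8 CPM in Fra1 controls and 36.6, 2.00 and 56.0 CPM in Fra1 mutants. Again the groups were far apart and mutant 2 was lowest. The fitted level was 13.7-fold lower (-3.78 ± 1.04, adjusted p = 0.0786 by edgeR). Leaving out Fra2 control 2 gave an adjusted p of 0.0432 for the same contrast, and leaving out Fra1 mutant 2 an effect of -3.23 (0.0740).

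Fra2 controls had 1311, 96.8 and 689 CPM of Slco1a1 and Fra2 mutants 158, 140.4 and 150.4 CPM. The 3 mutants were close to one another, and control 2 lay below all of them. The effect was -2.22 ± 0.97 (adjusted p = 0.414). Without control 1 it was -1.40, and without control 2 it was -2.74 (adjusted p = 0.325). Fra2 control 2 is the control with 48.1 CPM of Fosl2; the part of that in its Hsd3b5 and Slco1a1 levels was not tested.

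Averaged over both strains, each effect taken within its strain, Slco1a1 was the 1 of the 10 genes called lower by edgeR (-3.0 ± 0.71, adjusted p = 0.0317), where 6.24% of all genes were called, and 1.9% were called lower. This is an 8.01-fold lower level. With Hsd3b5, 2 of the 10 had an unadjusted p under 0.05, against 19.4% of all genes. The call rested on the full set of libraries: leaving out any 1 of 9 of the 12 libraries gave an adjusted p between 0.0525 and 0.0882, the exceptions being Fra1 mutant 2, Fra1 mutant 3 and Fra2 control 2. Hsd3b5 had a mean effect of -2.80 ± 0.80 (adjusted p = 0.0716). It passed without Fra1 mutant 2 (0.0393) or without Fra2 control 2 (0.0475).

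Elovl3 (chromosome 19, 46131897 to 46135694, plus strand) encodes an elongase of very long chain fatty acids that is more active in male than in female mouse liver. It was at 125, 239 and 209 CPM in Fra1 controls and 1.53, 1.32 and 68.9 CPM in Fra1 mutants. Mutants 1 and 2 were nearly devoid of the transcript, and mutant 3 lay between them and the lowest control. The effect of -2.99 ± 1.32 had an adjusted p of 0.293. Without mutant 3 it was -7.07 (adjusted p = 0.00998).

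In the Fra2 strain Elovl3 went the other way without passing. Controls were at 797, 134 and 194 CPM and mutants at 761, 152 and 667 CPM (0.49 ± 1.2, adjusted p = 0.933). Leaving out single libraries gave effects from 0.09 to 1.68. The difference of effects, Fra2 minus Fra1, was 3.48 ± 1.78 (adjusted p = 0.819), so the strains were not shown to differ.

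Cyp2d9 (chromosome 15, 82433437 to 82456845, plus strand), a steroid hydroxylase gene of male mouse liver, was the steadiest of the 10 in controls. Its 6 control levels ran from 1039 to 1372 CPM, a CV of 10.6%. Fra1 mutants were at 1014, 433 and 1127 CPM, so that mutant 2 alone stood far below. The Fra1 effect of -0.39 ± 0.27 (adjusted p = 0.525) was -0.07 without mutant 2. Fra2 mutants were at 1221, 1186 and 1244 CPM, inside the range of their controls (-0.02 ± 0.27, adjusted p = 0.992).

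Mup20 (chromosome 4, 62050234 to 62054158, minus strand) encodes darcin, a major urinary protein that male mice use in scent marks. It was at 815, 761 and 724 CPM in Fra1 controls and 1332, 435 and 1304 CPM in Fra1 mutants. The mutants lay on both sides of the controls, mutant 2 again being low (0.42 ± 0.50, adjusted p = 0.738; 0.78 without mutant 2). Mup20 in the Fra2 strain was at 2038, 611 and 521 CPM in controls and 943, 939 and 898 CPM in mutants. The Fra2 effect was -0.19 ± 0.50 (adjusted p = 0.936) and 0.71 without control 1.

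Hsd3b5, Slco1a1, Cyp2d9 and Mup20 belong to families of related genes, whose likeness in sequence was not measured here. The labels do not say how reads matching several genes were counted, so their counts are uncertain to that extent. Annotated genes on the opposite strand overlap Hsd3b5 (Zfp697), Elovl3 (Pitx3), Igf1 (Igf1os), Bcl6 (Gm37419), Cish (Gm17040 and Gm17041) and Cyp2d9 (Gm49419), and the labels do not say whether counting used the strand. On the same strand, Gm46501, Gm49421 and Gm27622 overlap Cyp2d9 and Gm22036 overlaps Slco1a1, which stranded counting cannot resolve. Per kilobase of merged exons, levels in Fra1 controls ran from 826 CPM for Mup20 and 422 for Cyp2d9, through 115 for Hsd3b5, 96.6 for Elovl3 and 82.1 for Slco1a1, to 52.4 for Ghr and 50.7 for Igf1. On the same scale Bcl6 was at 6.28, Cish at 3.70 and Socs2 at 2.94.

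Effects in the wider male-biased list were mostly negative in the Fra1 strain and mixed in the Fra2 strain. Of its 15 genes, which do not include the 10, 14 were tested. In Fra1 mutants edgeR called 0 of 14 (3.84% of all genes), with 5 at an unadjusted p under 0.05 (16.3%). There were 11 negative effects, and the median was -0.84, against 0.01 over all genes. Fra1 mutants lay wholly below controls in 7 of the 14 (9.98% of all genes) and wholly above in 2 (11.7%). The 2 with the smallest p were Cyp4a12b, a fatty acid hydroxylase gene (-0.81 ± 0.21, adjusted p = 0.0643), and the major urinary protein gene Mup21 (-2.34 ± 0.64, 0.0781). Mup21 was at 125, 119 and 73.2 CPM in Fra1 controls and 25.8, 10.1 and 26.7 CPM in Fra1 mutants. In Fra2 mutants 1 of 14 was called (1.07% of all genes), 7 effects were negative and 7 positive, and the median was -0.06, against -0.01 over all genes. Fra2 mutants lay wholly above controls in 3 of the 14 (9.31% of all genes) and wholly below in 0 (8.17%).

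The called gene was Cyp4a12b, which rose in Fra2 mutants (1.54 ± 0.22, adjusted p = 0.00648). It was at 90.1, 70.9 and 106 CPM in Fra2 controls and 248, 208 and 319 CPM in Fra2 mutants. In the Fra1 strain it was at 88.8, 129 and 131 CPM in controls and 74.3, 53.7 and 70.2 CPM in mutants. The groups were apart in both strains, in opposite directions, and the difference of effects passed (2.35 ± 0.31, adjusted p = 0.0342), where 0.0355% of all genes were called. That call was lost on leaving out any of 11 of the 12 libraries, Fra2 control 3 being the exception (adjusted p 0.0505 to 0.125), while the effect stayed between 2.17 and 2.52. Cyp4a12a is a close copy, and how reads were divided between the pair is unknown.

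For the mean of both strains, 2 of the 14 male-biased genes were called, 1 of them lower (6.24% of all genes, and 1.9% lower). C6, a complement gene, was higher (0.62 ± 0.14, adjusted p = 0.0232), with Fra1 mutants at 512, 474 and 595 CPM against 363, 364 and 403 CPM in controls, and Fra2 mutants at 585 to 607 CPM against 283 to 499 CPM. Mup21 was lower (-1.82 ± 0.45, adjusted p = 0.0366). C6 lost its call on leaving out any of 7 libraries (adjusted p up to 0.0665) and Mup21 on leaving out any of 8 (up to 0.0988) and with no filter (0.141).

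**Figure D4:**
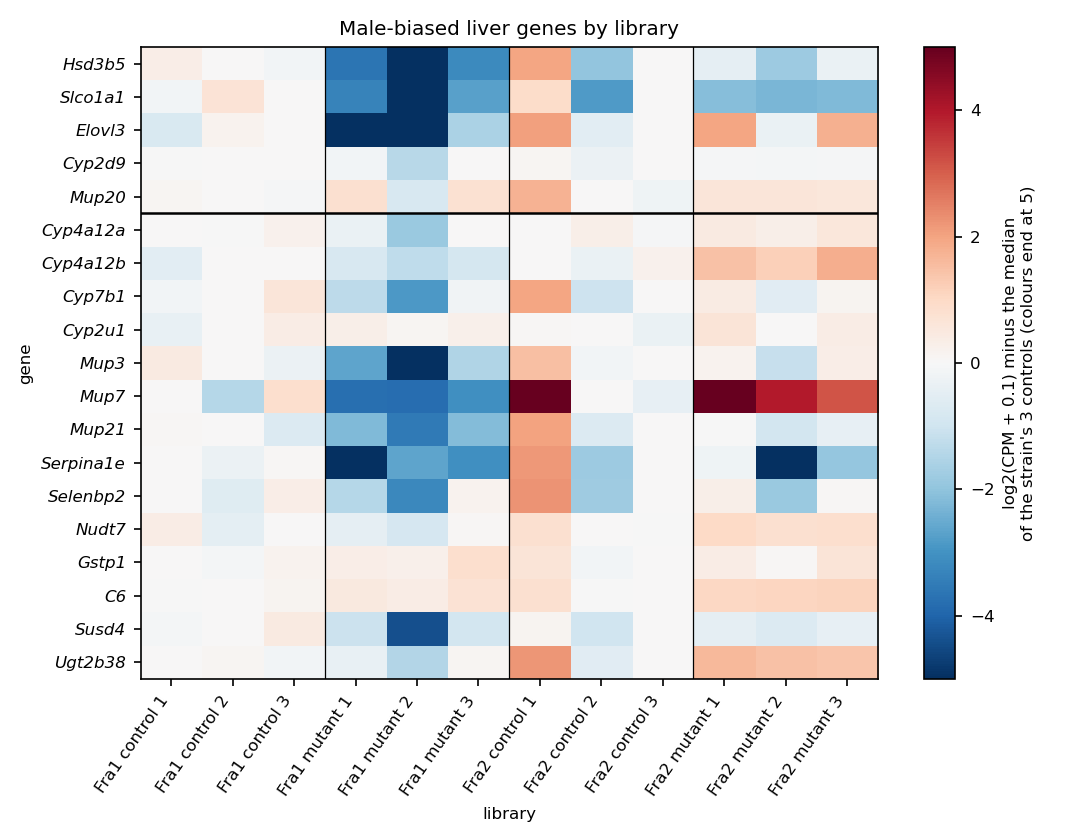
Heat map of 19 male-biased genes (rows) in the 12 libraries (columns), as log2(CPM + 0.1) minus the median of the 3 controls of the same strain, with colours ending at 5. Rows above the line are the 5 male-biased genes described first, and rows below it are the wider list. Fra1 mutant 2 is the darkest blue column, and Fra2 control 1 is red in most rows.

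Most female-biased liver genes were near silent in all 4 groups. Of 18 such genes 11 were too low to test, Cyp2b13 having 0 counts in all libraries and Sult2a1 2 counts. The highest single count among the 11 was 124, for Cyp2a4. Of the 7 tested, edgeR called 2 in Fra1 mutants (3.84% of all genes) and 1 in Fra2 mutants (1.07%). In Fra1 mutants 6 of the 7 effects were negative, with a median of -0.31 against 0.01 over all genes. An unadjusted p under 0.05 was seen in 4 (16.3% of all genes). Mutants lay wholly below controls in 3 (9.98%) and above in 1 (11.7%). In Fra2 mutants 5 effects were negative, with a median of -1.07 against -0.01. There 5 had an unadjusted p under 0.05 (11.5%), and mutants lay wholly below in 2 (8.17%) and above in 1 (9.31%). Abcd2, a peroxisomal fatty acid transporter gene, fell in both strains (-3.92 ± 0.54, adjusted p = 0.00206, and -4.30 ± 0.55, 0.00420). It was at 27.4, 44.2 and 18.6 CPM in Fra1 controls and 1.53, 2.95 and 1.47 CPM in Fra1 mutants, and at 20.4, 42.2 and 36.2 CPM in Fra2 controls and 3.21, 0.709 and 1.14 CPM in Fra2 mutants. Atp6v0d2, a proton pump subunit gene, rose in Fra1 mutants (6.39 ± 0.99, adjusted p = 0.00500), from 0.442 to 2.74 CPM in controls to 23.8 to 169.9 CPM. Its Fra2 effect was 3.55 ± 0.85 (adjusted p = 0.0987). In the mean of both strains edgeR called 3 of the 7 lower and 1 higher. Over all genes 1.9% were called lower and 6.24% in either direction. Abcd2 was lower (-4.11 ± 0.39, adjusted p = 0.000122) and Atp6v0d2 higher (4.97 ± 0.66, 0.00117). Tox, a nuclear factor gene, and Hamp2, a hepcidin gene, were also called lower (-0.98 ± 0.20, adjusted p = 0.0125, and -3.85 ± 0.80, 0.0171). Hamp2 lost its call without Fra2 mutant 2 (0.0523) or Fra2 mutant 3 (0.0503), by limma-voom (0.0802) and with no filter (0.0803).

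Among regulators of sex-biased liver genes, 2 are described here, Tox and Hnf4a, and counts over the list are not given. Tox was at 6.40, 3.83 and 2.91 CPM in Fra1 controls and 2.57, 2.16 and 2.29 CPM in Fra1 mutants (-0.90 ± 0.28, adjusted p = 0.115). The Fra2 controls had 4.47, 5.30 and 3.78 CPM of Tox and the Fra2 mutants 2.04, 2.18 and 2.23 CPM (-1.07 ± 0.28, adjusted p = 0.122). Mutants lay wholly below controls in both strains. Hnf4a, the hepatocyte factor that cooperates with STAT5b at male-biased genes, was at 558, 594 and 648 CPM in Fra1 controls and 799, 909 and 711 CPM in Fra1 mutants, without overlap (0.43 ± 0.16, adjusted p = 0.211).

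Of 5 lipid genes that are known to rise in mouse liver lacking growth hormone signalling, 4 were tested. In Fra1 mutants edgeR called 0, with 2 at an unadjusted p under 0.05 (16.3% of all genes), 2 effects positive and 2 negative, and a median of -0.20. Fra1 mutants lay wholly above controls in 1 of the 4 (11.7% of all genes) and wholly below in 1 (9.98%). In Fra2 mutants edgeR called 1 of 4 (1.07% of all genes), with 3 at an unadjusted p under 0.05 (11.5%), 3 effects positive, and a median of 0.90 against -0.01 over all genes. Fra2 mutants lay wholly above controls in 2 of the 4 (9.31% of all genes) and wholly below in 1 (8.17%). Cidec, a lipid droplet protein gene, was not called in the Fra1 strain, where mutants at 7.49 to 12.5 CPM lay wholly above controls at 0.393 to 1.11 CPM. It rose in Fra2 mutants (4.79 ± 0.96, adjusted p = 0.0447), with 10.0, 159 and 50.1 CPM against 0.939, 5.64 and 1.35 CPM in controls. That call was lost on leaving out any of 10 single libraries, the exceptions being Fra1 mutant 2 and Fra2 mutant 1 (adjusted p 0.0620 to 0.162). It was also lost by limma-voom (0.193), with no filter (0.167) and when only the 6 Fra2 libraries were fitted (0.127). In the mean of both strains edgeR called 1 of the 4 lower and 1 higher. Over all genes 1.9% were called lower and 6.24% in either direction. Pparg, the adipogenic nuclear receptor gene, was called lower in the mean of both strains (-1.14 ± 0.21, adjusted p = 0.00792) and Cidec higher (4.30 ± 0.71, 0.00483; 0.0613 by limma-voom). Pparg was at 6.73 to 10.3 CPM in Fra1 controls and 2.58 to 6.30 CPM in Fra1 mutants, and at 9.50 to 13.3 CPM in Fra2 controls and 3.58 to 5.51 CPM in Fra2 mutants.

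The strains were not shown to differ at any of the 10 genes. The test of the difference of effects called 0 of 10, with 0 at an unadjusted p under 0.05 (6.32% of all genes) and 0 by DESeq2 or limma-voom. The differences with the largest size were those of Elovl3 (3.48 ± 1.78), Hsd3b5 (2.54 ± 1.53, adjusted p = 0.861) and Slco1a1 (1.55 ± 1.33, 0.911). The control groups of the strains were compared as a reference. There 0 of 10 genes were called by any of the 3 tools, 0 had an unadjusted p under 0.05 (5.35% of all genes), and edgeR called 0% of all genes. Fra2 controls were nominally higher at 8 of the 10, with a median of 0.34, against 0.01 over all genes.

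Single mice stood at the extreme of many of the 10 genes. Fra1 mutant 2 was the lowest of the 12 libraries in 6 of the 10 genes, and Fra2 control 1 the highest in 8. The summed hepatocyte markers of Fra1 mutant 2, at 98707 CPM, were the highest of the Fra1 mutants. Its summed cholangiocyte markers, at 28.7 CPM, were the lowest of the Fra1 mutants, whose highest was 321 CPM. That sum is carried mostly by 1 gene, Spp1, at 23.8 to 303 CPM in Fra1 mutants. The lymphocyte markers of Fra1 mutant 2, also at 28.7 CPM, were the highest. Stellate cell markers summed to 293 to 353 CPM in Fra1 mutants against 181 to 225 CPM in their controls, with all 5 effects positive. Of these, 1 was called higher (3.84% of all genes), the matrix proteoglycan gene Dcn (0.86 ± 0.12, adjusted p = 0.00239). Dcn alone was at 191 to 222 CPM in Fra1 mutants and 102 to 127 CPM in their controls. In the Fra2 strain the sums were 197 to 274 CPM in mutants against 261 to 300 CPM in controls, with all 5 effects negative. No defining marker of any of these cell types was at 0 in any library, and their part in the results was not tested. Fra2 control 1 stood apart at Mup7, a male-biased major urinary protein gene, with 2714 CPM against 0.688 to 3.66 CPM in the other 5 controls, and 176, 19.5 and 11.3 CPM in the Fra2 mutants.

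Variation among controls differed widely between the genes. Over the 6 controls the CV was 90.3% for Elovl3, 85.4% for Hsd3b5, 75.2% for Cish, 74.2% for Slco1a1, 72.3% for Bcl6 and 61.6% for Mup20. It was 46.1% for Socs2, 16.2% for Igf1, 13.8% for Ghr and 10.6% for Cyp2d9. With 3 mice a group, the fitted SE was 1.21 for Hsd3b5 but 0.17 for Ghr in the Fra1 comparison.

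For each gene the protein-coding gene with the most similar profile over the 12 libraries was found among 11747 candidates. Likeness was the mean absolute difference of standardized log2 CPM, in SD units, and its median over candidates was 1.04 to 1.12. Hsd3b5 was most like Mup3 (0.184), a major urinary protein gene at 904, 4.74 and 1957 CPM in Fra1 mutants. Slco1a1 was most like Hsd3b5 itself (0.197). Cyp2d9 was most like the sulfotransferase gene Sult2a8 (0.154), which was at 415, 0.527 and 464 CPM in Fra1 mutants and at 524 to 1052 CPM in the other 9 libraries. Ghr was most like Tsc22d1 (0.200), Elovl3 like the transferrin receptor gene Tfr2 (0.239) and Bcl6 like Mia3 (0.297). The remaining pairs were farther apart: Socs2 and Adck5 (0.319), Cish and Phlda1 (0.352), Mup20 and Abhd12 (0.394), and Igf1 and 1700094D03Rik (0.418). These likenesses share the 12 libraries and their scaling, and carry no test.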

How the data were processed

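Liver messenger RNA of 12 male mice was sequenced as stranded libraries, as the labels describe. The authors deposited 1 table of raw whole-number counts per gene and library. The submitters' processing notes name, with no order, bedtools 2.27.1, DESeq2 1.22.2, STAR 2.6.1a and RSEM, and the build GRCm38 (mm10). Their roles, the annotation, the strand setting and the handling of reads that match more than 1 gene were not given in the sources used here. Groups came from the titles. The chi-square per degree of freedom between libraries of a group was 31.1 to 133, so no pair was within sampling noise.

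Genes passing edgeR's filterByExpr by group were kept, libraries were scaled by TMM, and 4 group means were fitted to all 12 libraries with the robust quasi-likelihood model (edgeR 4.0.16, R 4.3.3). Tests were two-sided, with Benjamini-Hochberg adjustment over all genes tested. Standard errors were derived from the F statistic. Libraries held 16834041 to 20464807 counts, and reads are not independent molecules. Mutants were compared with controls within each strain; the difference and the mean of these effects and the controls of the strains were also compared. With 3 against 3, an exact permutation test of a single gene cannot give a p under 0.1, so none was run. Gene coordinates are from GENCODE M21. The alternatives were DESeq2 1.42.0, voom from limma 3.58.1, RLE factors, no scaling, a minimum of 1 CPM in 3 libraries, no filter, a replicate block, fits of the compared libraries alone, and leaving out each library. The scripts were tested on simulated data.

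The 10 genes and the 6 further lists (receptor signalling, IGF axis, male-biased, female-biased, regulators, lipid genes) were chosen with earlier results of these data known. All 10 are named. From each list and comparison up to 4 called genes are named, or up to 2 with the smallest p where none is called, and for each of the 10 the gene with the most similar profile, of at least 1 CPM on average (log2 CPM with a prior count of 2). Stat5b, Igf2, the genes too low to test that are named, and the values of Mup7, Dcn and Spp1 were added outside that rule. Data of a further strain that the design mentions were not used here. A gene of the regulator list is not reported here.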

Additional observations from a re-analysis of the deposited data

Results flagged for a closer look

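Cyp4a12b, a male-biased fatty acid hydroxylase gene, was singled out because its effects differed between the strains by a direct test. The difference of effects, Fra2 minus Fra1, was 2.35 on the log2 scale (edgeR, adjusted p = 0.0342). Mean log2 CPM of mutants minus controls was -0.80 in the Fra1 strain and 1.53 in the Fra2 strain, and mutants and controls did not overlap in either strain. None of the 10 growth hormone and STAT5 targets met this criterion. The call was lost by limma-voom (adjusted p = 0.0509) and on leaving out any of 11 single libraries.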

How the results depend on the processing

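Of 980 comparisons of a log2 fold change of the 10 genes with its value under an alternative, 907 kept direction and side of the threshold, 9 gained a call, 11 lost one and 53 changed sign. Of the 10 genes, 0 were called in the Fra1 comparison, 2 by DESeq2, 1 by limma-voom and 0 to 1 on leaving out a library. In the mean of both strains 1 was called, and 2 by DESeq2, 0 with no filter (Slco1a1 adjusted p = 0.127), 0 with the replicate block (0.15) and 0 to 2 on leaving out a library. It is not known whether the replicate numbers pair the mice. Correlations of deviations between same-numbered mutants and controls were -0.071, 0.047 and 0.053 in the Fra1 strain and 0.056, 0.032 and -0.121 in the Fra2 strain. Differently numbered pairs ran from -0.142 to 0.107. Such weak values can neither show nor exclude a pairing. With the replicate block Cyp4a12b also missed the threshold in the difference (0.0549) and Hamp2 in the mean (0.163). Sign changes by limma-voom were Cish at -0.17 (Fra1), -0.073 (Fra2), 0.095 (difference) and -0.12 (mean), Mup20 at 0.10 (Fra2), and Hsd3b5 at -0.30 and Socs2 at 0.023 between controls. With the replicate block they were Cish at -0.30 (Fra1), -0.020 (Fra2), 0.28 (difference), -0.16 (mean) and 0.0013 (controls), Mup20 at 0.11 (Fra2) and Socs2 at 0.14 (controls). With no scaling they were Cyp2d9 at 0.033 (Fra2) and Socs2 at 0.026 (controls); that setting moved the median of all genes from 0.01 to 0.15 in the Fra1 comparison and from -0.01 to -0.10 in the difference. On leaving out single libraries these effects crossed 0, as ranges: in Fra1 Socs2 -1.34 to 0.034, Bcl6 -0.14 to 1.03 and Cish -1.77 to 1.51. In Fra2 the ranges were Cyp2d9 -0.13 to 0.065, Igf1 -0.21 to 0.0075, Bcl6 -0.80 to 0.21, Cish -0.93 to 0.76, Ghr -0.20 to 0.032 and Mup20 -0.52 to 0.71. In the difference they were Socs2 -1.19 to 0.21, Cish -1.57 to 2.13 and Mup20 -0.97 to 0.29, and in the mean Bcl6 -0.22 to 0.38, Cish -0.70 to 0.93 and Mup20 -0.049 to 0.56. Between controls they were Hsd3b5 -0.98 to 0.99, Elovl3 -0.22 to 1.38, Slco1a1 -0.14 to 1.21, Igf1 -0.015 to 0.27, Socs2 -0.38 to 0.54, Cish -1.20 to 0.012 and Mup20 -0.44 to 0.79. Over all genes, calls numbered 540 in Fra1 (DESeq2 1021, and 267 to 582 leaving out a library), 150 in Fra2 (448, 98 with the replicate block, 90 from the Fra2 libraries alone, and 53 to 184), 5 in the difference (69, limma-voom 0, no filter 9, and 0 to 13), 878 in the mean (1348, and 599 to 903) and 0 between controls (18, no filter 3, and 0 to 1). The causes were not tested. With 3 mice a group and control CVs of up to 90.3%, effects of mutants against controls at Hsd3b5, Slco1a1 and Elovl3 had SEs of 0.97 to 1.32 on the log2 scale.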
